A study of Arabidopsis thaliana with 24 samples.

Results

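Roots of the Arabidopsis thaliana double mutant bzip1/bzip53 kept for 3 h in 150 mM NaCl were set against roots of the same mutant without added salt. The comparison took in 6 of the study's 24 arrays, 3 of salt-treated and 3 of untreated mutant roots, chosen by the genotype, treatment and time in the array titles. The other arrays hold the mutant after 1 h and 6 h in 150 mM NaCl, and wild type of the Col-0 ecotype after 1 h, 3 h and 6 h in the same salt and without it, with 3 arrays in every group. All groups were 6-week-old plants of the Col-0 background raised in hydroponic culture, although another label calls the tissue seedling roots. The untreated mutant roots carry the same knockouts of both genes as the salt-treated ones. The labels name no alleles and do not say how plants were divided between the arrays of a group, which the titles call biological replicates, and p-values below rest on how far arrays of 1 group lay apart, which may be technical. Harvest late in the light period is stated for salt-treated roots, and no separate time is given for untreated roots.

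bZIP1 and bZIP53 are basic leucine zipper transcription factors, proteins that bind DNA as dimers at sites with an ACGT core. In Arabidopsis both belong to the small S1 group, which pairs with group C bZIP factors and is known for switching on genes of amino acid breakdown when sugar or energy is short. High external NaCl draws water from root cells and loads them with sodium, and roots are known to answer through calcium signals, abscisic acid, protective hydrophilic proteins and a slowing of growth.

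Each array read 22746 tested probe sets, and all levels below are deposited log2 values, on which a difference of 1 is a fold of 2. Levels under 5 were counted as near background, and a fold in which either group lay there has no exact size. Array medians ran from 6.58 to 6.60 in salt-treated and from 6.53 to 6.59 in untreated mutant roots. Mutant control array 1 stood apart from the other arrays of both genotypes: its dap spike-in probe set read 8.20, against 3.01 to 3.43 on the other 23 arrays, and its 25S ribosomal RNA probe set read 11.93, against 12.52 to 13.47. The gap between the 3′ and 5′ actin probe sets, a sign of RNA integrity, was 1.40 on that array, while the highest of the other 5 arrays compared here was 0.97. The 25S probe set read 13.03 to 13.12 in the salt-treated mutant roots and 11.93 to 12.63 in the untreated ones. The part of these readings in the results was not tested. Values without that array are given for some of the results that change, not for all of them.

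BZIP53 (AT3G62420), one of the targeted genes, read 8.90, 8.83 and 8.86 in the salt-treated mutant roots and 9.24, 9.17 and 9.16 in the untreated ones. The salt-treated arrays all lay below the untreated ones, with a log2 difference of -0.33 ± 0.10 (SE) and an adjusted p of 0.0119 from limma. Wild-type roots read 11.01, 11.12 and 10.87 after 3 h in salt and 10.37, 10.47 and 10.86 without it, above every mutant array. The mutant signal stayed above the near-background level, and the labels do not say where BZIP53 is disrupted, so whether the probe set lies outside that place was not checked. A probe set for bZIP1 was not identified among the named genes, and that gene is not analysed here.

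Of 56 listed marker genes, 6 were measured: 2 of 7 for root hairs and 4 of 21 for photosynthetic shoot tissue. The root hair expansins EXPA7 and EXPA18 averaged 5.65 to 6.34 over the salt-treated arrays and 7.68 to 8.11 over the untreated ones. The photosynthetic markers RCA, LHCB4.1, LHCB4.2 and LHCB4.3 averaged 5.61 to 5.71 in salt-treated and 5.71 to 6.03 in untreated roots. No listed marker of endodermis, stele, xylem, phloem, root cap or meristem was among the named genes. In these bulk roots, fewer cells of a type and less RNA per cell cannot be told apart.

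After 3 h in salt, 10342 of the 22746 probe sets (45.5%) differed from the untreated mutant roots at an adjusted p under 0.05. More of them were lower than higher: 6385 (28.1%) were lower and 3957 (17.4%) higher. At larger folds there were more higher than lower. Of the 2667 probe sets called with a fold of at least 2 (11.7%), 1591 (6.99%) were higher and 1076 (4.73%) lower. At a fold of at least 4 there were 659 higher and 187 lower, and at 16 there were 134 higher and 3 lower. Among all calls, 5178 (50.1%) had a fold under 1.5. The median difference over all probe sets was -0.079. Without mutant control array 1 there were 9999 calls, and without 3 h array 1 there were 9127. A single gene name was available for 5687 of the called probe sets, and 2069 named genes were called higher and 3579 lower out of 13356.

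**Figure D1:**
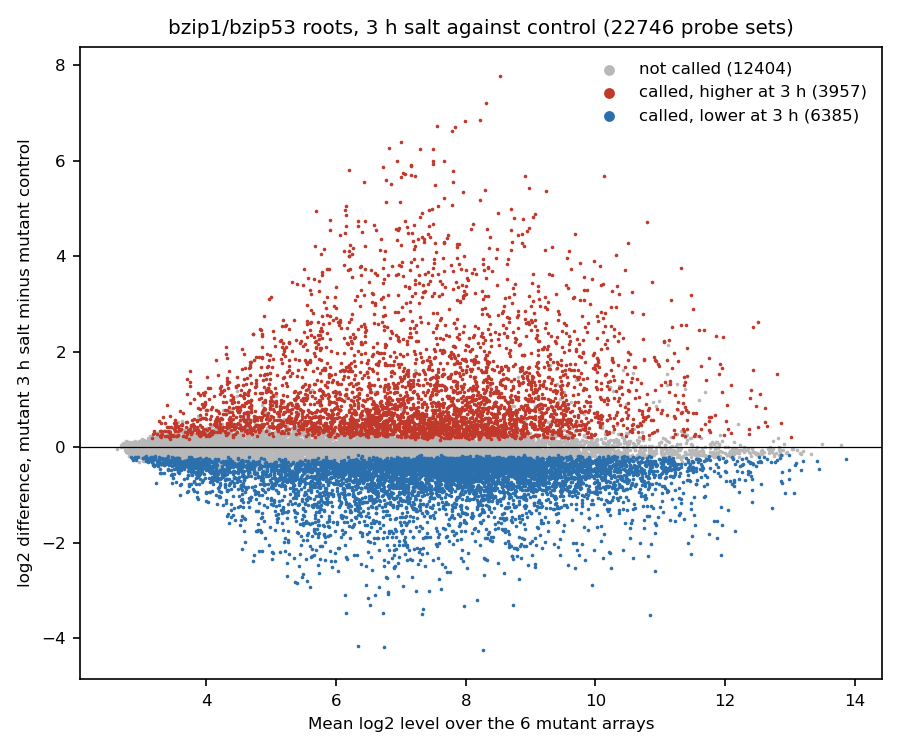
Mean log2 level over the 6 mutant arrays (x axis) against the log2 difference of 3 h salt minus control (y axis), 1 point for each of 22746 probe sets. Red points are the 3957 called higher and blue points the 6385 called lower; the red points reach farther from 0 than the blue ones.

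The 12 named genes that rose most from a measurable control level included a protease, a lignin enzyme, a calcium sensor, a ubiquitin ligase and a jasmonate-related transcription factor. AT5G19110, which encodes an aspartyl protease family protein, read 11.72, 11.94 and 11.64 after 3 h in salt and 5.84, 6.19 and 6.20 in control roots. All salt-treated arrays lay far above all control arrays, a fold of 51.6 (log2 difference 5.69 ± 0.47, adjusted p = 6.11e-09, limma). AT3G12510 read 10.32, 9.78 and 10.17 in salt and 5.04, 4.96 and 5.12 in control roots. Its control arrays lay within 0.2 of each other, and the fold was 33.1 (adjusted p = 1.36e-15, limma). CCR2, a cinnamoyl-CoA reductase of the lignin branch of phenylpropanoid metabolism, read 11.52, 11.59 and 11.42 in salt against 7.11, 6.48 and 6.29 in control roots, a fold of 29.5. AT1G78070, a WD40 repeat protein, read 10.71, 10.47 and 10.64 in salt and 6.23, 6.00 and 5.90 in control roots, a fold of 23.7. AT2G32020, an acetyltransferase of the GNAT family, was 23.5-fold higher, AT3G17110 23.9-fold and PUB19, a U-box ubiquitin ligase, 21.9-fold. In each of these genes the groups did not overlap, which the naming rule required.

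In the other 5 leading genes the control arrays lay far apart. ORA47, an AP2/ERF factor known to switch on jasmonate synthesis genes, read 11.33, 11.57 and 10.92 in salt and 9.13, 5.78 and 4.54 in control roots. Mutant control array 1 stood more than 3 log2 units above the other mutant controls and still below the lowest salt-treated array. Wild-type control roots were also scattered, at 5.15, 4.73 and 9.99. The log2 difference was 4.79 ± 1.04 (adjusted p = 0.000714, limma), 6.12 without control array 1 and 3.82 without control array 3. GRX480, a glutaredoxin, read 10.71, 10.72 and 9.90 in salt and 7.64, 5.07 and 4.58 in control roots, with a difference of 4.68, which was 5.62 without control array 1 and 4.09 without control array 3. AT3G01830, a calmodulin-like calcium sensor, read 10.58, 10.69 and 9.70 in salt and 7.16, 4.99 and 3.59 in control roots, with 5.08 over all arrays, 6.03 without control array 1 and 4.25 without control array 3. AT5G52760, a heavy-metal-domain protein, read 11.18, 11.38 and 10.43 in salt and 7.21, 5.13 and 4.48 in control roots (log2 difference 5.39, or 6.19 without control array 1). AT2G14290 differed by 4.47, or 5.13 without control array 1. Without control array 1 the control means of GRX480, AT3G01830, AT5G52760 and AT2G14290 lay under 5, so those differences have no exact size. Control array 1 was the highest control array in 10 of the 12 leading genes, and these 12 calls held without it.

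**Figure D2:**
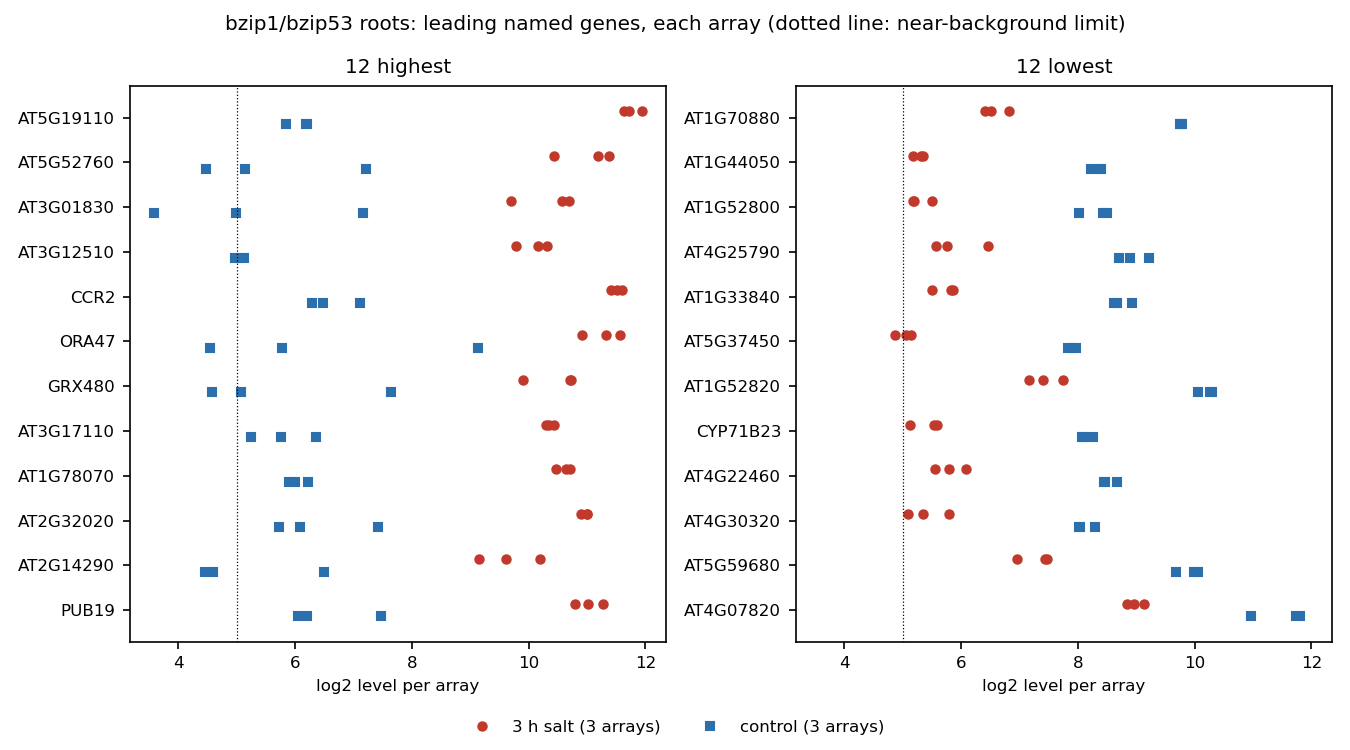
Log2 level on each array for the 12 named genes with the highest (left) and the 12 with the lowest (right) differences among those with both means at 5 or more. Red circles are the 3 arrays after 3 h in salt and blue squares the 3 control arrays; the groups are apart in every gene, and the control squares of ORA47 spread from 4.54 to 9.13.

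A second set of genes rose from near background, so their folds have no exact size. AT2G41730 read 11.39, 11.60 and 11.22 after 3 h in salt and 4.82, 4.50 and 4.38 in control roots. GH3.3, an enzyme that joins auxin to amino acids, read 10.91, 10.63 and 10.43 in salt and 4.50, 4.80 and 4.69 in control roots. AT3G53600, a C2H2 zinc finger factor, read 10.22, 10.43 and 9.94 in salt against 3.75, 3.83 and 3.81 in control roots. The log2 differences were 6.84, 5.99 and 6.40, the first being the highest of the named genes, with adjusted p values of 3.58e-15, 1.04e-14 and 5.16e-09 (limma). AT5G51440, a small heat shock protein of mitochondria, rose to 9.70, 10.27 and 9.83 in salt, against 3.99, 4.05 and 3.80 in control roots. The leucine-rich repeat protein AT2G26380 averaged 10.46 ± 0.29 in salt and 4.52 ± 0.22 in control roots (SD, n = 3). The subtilisin-like protease AT1G32970 averaged 10.11 ± 0.38 in salt and 4.19 ± 0.57 in control roots (SD, n = 3). BGLU24, a beta-glucosidase, differed by 5.70. All of these genes were well measured in salt-treated roots, and their control means lay under 5. Of all 1591 probe sets called at least 2-fold higher, 376 had a control mean under 5.

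Among genes with both means at 5 or more, the 12 named genes that fell most included oxygenases, CAP-domain proteins and receptor-like kinases. AT1G70880, of the major latex protein family, read 6.83, 6.41 and 6.51 in salt and 9.78, 9.75 and 9.77 in control roots, 9.10-fold lower (-3.19 ± 0.23, adjusted p = 1.02e-09, limma). AT1G44050, a C1-domain protein, read 5.17, 5.31 and 5.35 in salt and 8.23, 8.37 and 8.40 in control roots, 8.33-fold lower. In both genes the control arrays lay within 0.2 of each other, and no salt-treated array came near them. AT1G52800 and AT1G52820 are neighbouring genes for 2-oxoglutarate and iron-dependent oxygenases. AT1G52800 read 5.20, 5.17 and 5.50 in salt and 8.02, 8.50 and 8.44 in control roots, and AT1G52820 read 7.41, 7.17 and 7.75 in salt and 10.05, 10.27 and 10.30 in control roots. They were 8.15-fold and 6.78-fold lower, and a further gene of that row, AT1G52790, ended near background at 4.30, 4.07 and 4.06 in salt, against 7.11, 7.17 and 6.91 in control roots.

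AT4G25790, AT4G30320 and AT4G07820 encode secreted CAP-domain proteins related to pathogenesis-related protein PR-1. AT4G25790 read 6.45, 5.77 and 5.57 in salt and 9.22, 8.89 and 8.71 in control roots, a fold of 8.05 lower, with 6.52 for AT4G30320 and 5.72 for AT4G07820. The receptor-like kinases with leucine-rich repeats AT5G37450 and AT5G59680 were 7.37-fold and 6.16-fold lower. AT5G37450 read 5.05, 5.14 and 4.87 in salt, at the edge of background, and 7.97, 7.84 and 7.90 in control roots. The lipid transfer protein gene AT4G22460 was 6.59-fold lower, the P450 gene CYP71B23 6.61-fold and AT1G33840 8.05-fold. Among genes that ended near background, the peroxidase genes AT3G49960 and AT1G34510 differed by -3.15 and -2.82, the pectin methylesterase gene AT5G04960 by -3.29 and AT3G18450, of the PLAC8 family, by -3.46 (log2). AT3G18450 read 5.43, 4.83 and 4.73 in salt and 8.41, 8.59 and 8.37 in control roots. Of the 1076 probe sets called at least 2-fold lower, 210 had a mean under 5 after salt.

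Gene groups were read from 53 lists of families and pathways, of which 32 had at least 3 measured genes, 404 genes in all. Their counts stand against 17.4% of all probe sets called higher and 28.1% called lower, and their medians against -0.079 over all probe sets. A call is said to be kept where it held at an adjusted p under 0.05 under every other fit, scaling and filter in which the gene was tested and on omission of each array; stricter thresholds were not part of this.

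Genes of water stress protection were called in 1 direction. Of 13 measured late embryogenesis abundant (LEA) and dehydrin genes, which encode hydrophilic proteins known to guard membranes and enzymes in drying cells, 11 were called higher and 0 lower, with a median of 1.54, and 9 kept the call. LEA4-5 read 9.90, 9.08 and 9.98 in salt and 4.38, 3.32 and 3.64 in control roots, and thus started near background. So did AT3G15670 (5.60) and AT3G02480 (5.52), whose salt-treated arrays lay between 9.09 and 9.84. The dehydrins LTI30 and COR47 were already well expressed in control roots. LTI30 read 13.94, 13.71 and 13.81 in salt and 11.56, 11.10 and 10.94 in control roots, 6.13-fold higher (adjusted p = 5.45e-11, limma), and COR47 was 2.91-fold higher. COR15B and AT3G17520 did not pass the test, at 0.48 and 0.13. COR15B (adjusted p = 0.0573, limma) passed with the compared groups alone (0.0145), with array weights (0.0198) and after the arrays were quantile normalized again (0.0482).

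Ubiquitin ligases of the plant U-box family, which tag proteins for breakdown and are known as brakes on drought and immune signalling, were higher in 6 of 9 and lower in 0, with a median of 1.25, and all 6 kept the call. PUB19 read 11.27, 10.80 and 11.01 in salt and 7.47, 6.20 and 6.05 in control roots. PUB24 and PUB23 were 7.78-fold and 7.19-fold higher, PUB25 3.32-fold and PUB26 2.38-fold. PUB22, at 0.87 ± 0.51, did not pass the test, but passed with array weights, at 1.12. PUB15 and PUB49 did not pass the test. Of 5 enzymes that remove reactive oxygen, 3 were higher and 0 lower. The stromal ascorbate peroxidase SAPX, the glutathione reductase GR1 and the monodehydroascorbate reductase ATMDAR2 differed by 0.55, 0.48 and 0.47, each under 1.5-fold, and 1 gene was lower without mutant control array 1. Among 4 heat shock genes, AT5G51440 and Hsp70-2 rose (5.99 and 1.26) and CLPB2 fell, with both means near background (-0.46, not called without mutant control array 1, at -0.33).

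Transcription factors were called in both directions. Of 23 measured bZIP genes, 7 were higher, 8 lower and 8 did not pass the test, with a median of -0.046. BZIP60, which drives genes of the unfolded protein response in the endoplasmic reticulum, read 11.24, 11.13 and 10.98 in salt and 9.17, 9.07 and 8.93 in control roots, 4.17-fold higher (adjusted p = 2.32e-07, limma). BZIP28, known for the same response, was 1.58-fold higher, and bZIP44, of the S1 group like both knocked-out genes, 1.49-fold. The lowest was FD, a partner of the flowering signal FT, at 4.95, 4.90 and 4.98 in salt against 6.01, 6.20 and 6.10 in control roots. BZIP24, known as a regulator of salt responses, was lower at -0.66, ending near background. Of 7 WRKY genes, 4 were higher and 1 lower. WRKY53 differed by 2.61, or 3.21 without mutant control array 1, and WRKY22 by 2.12, while WRKY47 was lower at -0.64. Besides ORA47, AT4G28140 rose among 5 AP2/ERF genes (4.62, from near background) and tny fell (-1.59), while 2 were lower without 3 h array 3 or without mutant control array 2.

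Calcium sensors of the calmodulin-like family rose in 4 of 8 genes and fell in 1, with a median of 1.49. CML37 read 10.98, 11.23 and 10.38 in salt and 8.79, 5.95 and 4.96 in control roots, again with control array 1 the highest, and its log2 difference of 4.30 was 5.41 without control array 1 and 3.49 without control array 3. CML23 was 4.92-fold higher and CML43 3.03-fold lower. CML38, at 1.57 ± 0.67, did not pass the test (adjusted p = 0.0624, limma), but passed without mutant control array 1, at 2.13.

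Both auxin lists held more higher than lower calls. Of 5 GH3 genes, whose enzymes conjugate auxin or related acids, 3 were higher and 1 lower. GH3.1 read 7.73, 7.95 and 7.40 in salt and 5.19, 5.23 and 5.26 in control roots, and WES1 was 3.00-fold higher. GH3.17, which is known to prefer glutamate, was 1.95-fold lower. Of 7 Aux/IAA genes, encoding repressors of auxin-responsive genes, 4 were higher and 1 lower, with a median of 0.74. IAA30 rose from near background, at 9.07, 8.79 and 8.80 in salt against 4.18, 4.16 and 4.67 in control roots, and IAA18 was 1.94-fold higher. The 5 calls in the Aux/IAA list and the 4 in the GH3 list were kept. For other hormones, the jasmonate list of 4 held OPCL1, an enzyme of jasmonate synthesis, 6.76-fold higher, and the jasmonate-responsive factor MYC4, 1.92-fold lower; a second lower call, MYC3 at -0.29, was lost without mutant control array 2 (-0.21), control array 3, 3 h array 1 or 3 h array 3 (-0.26 each). Of 9 gibberellin and cytokinin genes, the receptor gene GID1B (0.67) and the response regulator ARR15 (0.56) were higher and 0 were lower.

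Genes of the cell wall were called in both directions. Of 19 expansin genes, whose proteins loosen walls, 4 were higher and 9 lower, with a median of -0.22, and 4 of the 9 kept the call. The higher genes included the expansin-like EXLA3 and EXLA2. EXLA3 differed by 3.31, or 4.03 without mutant control array 1, and EXLA2 by 2.16. The lowest were the root hair genes EXPA18 and EXPA7 and the beta expansin EXPB1. EXPA18 read 5.42, 4.88 and 5.37 in salt and 7.64, 7.81 and 7.68 in control roots, EXPA7 differed by -1.24 and EXPB1 by -1.15. Of 10 xyloglucan endotransglucosylases, which cut and rejoin wall polymers, 4 were lower and 1 higher. XTH26, known from root hairs, read 4.02, 4.22 and 4.11 in salt and 6.83, 7.15 and 6.49 in control roots and ended near background. XTH33, XTH16 and XTH21 differed by -2.10, -1.95 and -1.88, and XTH20 was 3.57-fold higher. Of 8 class III peroxidases, 3 were higher and 2 lower: besides AT3G49960 above, AT5G17820 fell by 4.65-fold, and AT5G64120 was 5.86-fold higher. The 2 measured root hair markers, EXPA7 and EXPA18, are themselves members of the expansin list and give no separate view of it. The part of root hairs in these lists was not tested.

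Genes of the cytoskeleton and of wall synthesis followed. Tubulin genes, which encode microtubules, were lower in 5 of 7 and higher in 0, with a median of -0.51, and 4 of the 5 kept the call, while 1 was higher without 3 h array 2 or without mutant control array 2. TUB1 averaged 8.56 ± 0.079 in salt and 9.73 ± 0.23 in control roots (SD, n = 3), 2.25-fold lower, and TUB5 was 1.92-fold lower. Of 10 cellulose synthase and related genes, CSLC04, of xyloglucan synthesis, was 4.51-fold higher and the xylan gene GUT2 1.47-fold lower, while the other 3 calls were small and were not kept. In the lists of 3 core cell cycle genes and 3 pectin methylesterases, limma called 0 genes, and 0 had an unadjusted p under 0.05; the lists were matched by symbol, and the pectin methylesterase list does not hold AT5G04960, which was called lower. Of 6 histone genes, 1 was higher and 2 lower. The linker histone gene HON4 was 1.48-fold lower and kept the call. HTB1 was higher (0.31) but lost the call without mutant control array 2 (0.29) or 3 (0.30), or 3 h array 1 (0.29) or 3 (0.30). HTB11 was lower (-0.30) but lost it without mutant control array 1 (-0.26) or 3 h array 2 (-0.24).

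Transport genes were called in both directions. Of 12 genes of nitrate and related transport, 5 were higher and 2 lower, with a median of 0.15. GTR1 and GTR2 encode glucosinolate transporters of the nitrate and peptide transporter family. GTR1 read 11.42, 11.18 and 11.12 in salt and 8.31, 7.75 and 7.62 in control roots, 10.2-fold higher (adjusted p = 5.33e-07, limma), and GTR2 was 2.31-fold higher. Their relatives AT1G59740 and AT2G26690 were 6.03-fold and 2.48-fold higher, and AT1G72125 was 2.55-fold lower. Of 21 sugar transporters, 8 were lower and 1 higher, with a median of -0.18, and 5 of the 8 were kept. The vacuolar sugar transporters SWEET16, SWEET17, TMT1 and TMT2 were 2.04-fold, 1.79-fold, 2.00-fold and 1.64-fold lower. SFP1, of the sugar-porter family, differed by -1.10 and SWEET14 by 0.65. Of 6 cation and proton exchangers, CHX16 was lower (-1.46) and 0 were higher, while chx28 was lower as well without control array 3 (-0.47) and CHX20 higher without control array 1 (0.27). Of 5 genes of phosphate, sulfate and iron uptake, 4 were lower and 0 higher, but 2 were lower without 3 h array 2. BHLH101, a regulator of iron uptake, differed by -1.02, ending near background.

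Genes of respiratory carbon metabolism and of autophagy held more lower than higher calls. Of 15 genes of pyruvate metabolism and the citric acid cycle, 7 were lower and 1 higher, with a median of -0.23. The succinate dehydrogenase gene SDH1-2 read 5.65, 5.25 and 4.76 in salt and 6.27, 6.52 and 6.29 in control roots, and the citrate lyase gene ACLA-3 was 1.67-fold lower. Of 11 autophagy genes, which build the vesicles that carry cell contents to the vacuole, 7 were lower and 1 higher, with a median of -0.43, and all 8 kept the call. ATG8D read 7.68, 7.65 and 7.52 in salt and 8.76, 8.78 and 8.63 in control roots, 2.15-fold lower, and APG8H, APG8A and ATG8B were 1.87-fold, 1.86-fold and 1.84-fold lower. ATG8H was 1.68-fold higher.

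Branched-chain amino acid breakdown, a pathway the S1 bZIP factors are known to control, differed by less than 0.7 log2 units in each gene. Of 9 measured genes, 2 were higher and 3 lower, with a median of -0.037. IVD, the isovaleryl-CoA dehydrogenase of leucine breakdown, read 8.60, 8.58 and 8.42 in salt and 7.90, 8.08 and 7.88 in control roots, a log2 difference of 0.58 (adjusted p = 0.00899, limma). ETFBETA, a subunit of the flavoprotein that takes up its electrons, was 1.31-fold higher, while ETFALPHA and ETFQO, at -0.037 and -0.0053, did not pass the test. ALDH6B2, of valine breakdown, read 9.73, 9.85 and 9.84 in salt and 10.35, 10.53 and 10.61 in control roots, 1.61-fold lower. The other 2 lower calls, AT5G09300 and MCCB, were lost without mutant control array 1 (-0.30 and -0.21) or without 3 h array 1 (-0.25 and -0.29), and MCCB also without 3 h array 3 (-0.27).

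Detoxifying enzymes were called in both directions, as were probe sets over the whole array (17.4% higher and 28.1% lower). Of 14 glutathione S-transferases, 3 were higher and 5 lower. GSTU25 read 9.28, 9.48 and 9.13 in salt and 5.18, 5.60 and 5.31 in control roots, 15.3-fold higher, and GSTU22 was 2.92-fold higher, while GSTU28 and GSTU27 were 4.74-fold and 3.67-fold lower. Of 22 cytochrome P450 genes, most of the CYP71B subfamily, 6 were lower and 2 higher, and all 6 lower genes, CYP71B23, CYP71B37, CYP71B26, CYP71B34, CYP71B29 and CYP71B28, kept the call. Their log2 differences ran from -2.72 to -1.11. One of the 2 higher P450 calls, CYP71B21, at 0.39, was lost without mutant control array 1 (0.35), control array 2 (0.40) or 3 h array 2 (0.23). Of 51 sugar-transferring UGT genes, 8 were higher and 9 lower, and 5 were higher without 3 h array 1. UGT87A2 was 7.73-fold higher, UGT72E1, which glucosylates lignin precursors, 4.64-fold lower and UGT71C1 4.08-fold lower. Of 4 flavonoid and phenylpropanoid genes, CCR2 was the only one called.

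Plastid-encoded genes gave counts that turned on single arrays. Of 69 measured, 6 were higher and 6 lower, with a median of 0.068. Without mutant control array 1 the counts were 1 higher and 14 lower, and without 3 h array 2 there was 1 higher. Without control array 2 there were 12 higher and 2 lower, without control array 3 there were 16 higher and 2 lower, and without 3 h array 1 there were 2 lower. The median level of these genes was 7.05, 7.25 and 6.999 on the salt-treated arrays, against 6.62, 7.09 and 7.07 on the control arrays.

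**Figure D3:**
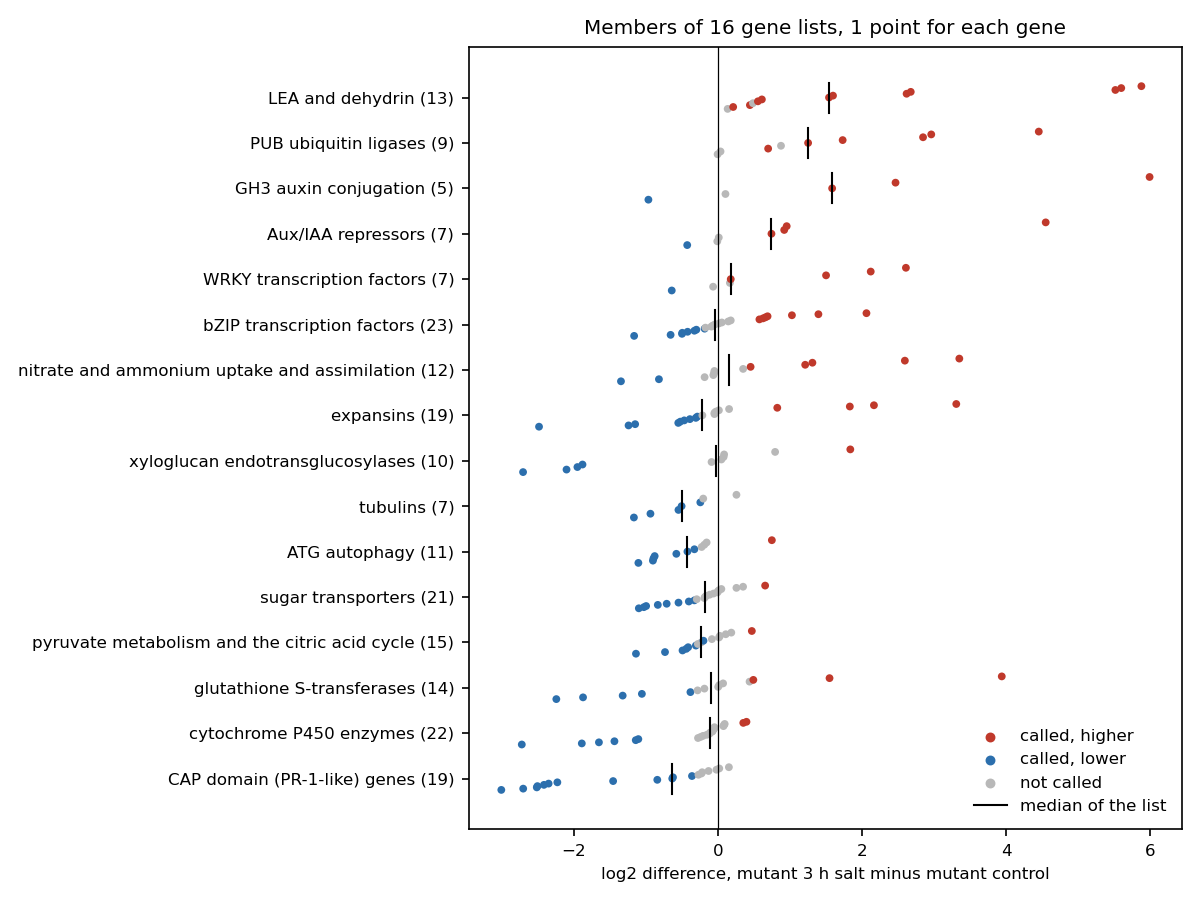
Log2 difference of 3 h salt minus control for each member of 16 gene lists (number of measured genes in brackets), with a bar at each list's median. Red points were called higher, blue points lower and grey points neither; no LEA or U-box (PUB) ligase gene is blue, and CAP-domain genes, a list written after values were seen, have no red point.

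The 3 h time point was then placed between the earlier and the later one within the mutant. These comparisons share the 3 h arrays with the one above. Between 3 h and 1 h in salt, 7066 probe sets (31.1%) differed at an adjusted p under 0.05, 2635 (11.6%) higher and 4431 (19.5%) lower at 3 h. Between 6 h and 3 h, 2690 (11.8%) differed, 1306 (5.74%) higher and 1384 (6.08%) lower at 6 h. That last comparison had 1755 calls if 3 h array 1 was left out and 1757 if 6 h array 1 was; on 6 h array 1 the actin gap was 1.57, and its part was not tested. The count against 1 h was 4878 when 1 h array 2 was left out.

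Of the 12 leading genes with measurable controls, 7 were higher at 3 h than at 1 h, and so were the 10 that started near background. Over all probe sets the share was 11.6%. Both sets were picked for high values on the same 3 h arrays, which favours such counts, so the counts support nothing about timing. AT2G41730 was low at 1 h and high at 3 h. It read 4.82, 4.50 and 4.38 in mutant control roots, 4.99, 5.75 and 5.28 at 1 h, 11.39, 11.60 and 11.22 at 3 h and 12.28, 12.72 and 11.99 at 6 h. It had the largest rise of the named genes between 1 h and 3 h (log2 difference 6.06 ± 0.20, adjusted p = 7.38e-14, limma). AT5G43450, an oxygenase of the 2-oxoglutarate class, differed by 4.28 between 3 h and 1 h and by a further 2.33 between 6 h and 3 h. LEA4-5, GH3.3 and AT3G02480 differed by 4.28, 4.18 and 4.09 between 3 h and 1 h. Of the LEA list, 9 of 13 were higher at 3 h than at 1 h, and between 6 h and 3 h 1 was higher and 1 lower. ORA47 read 11.26, 9.64 and 11.52 at 1 h and 11.33, 11.57 and 10.92 at 3 h, and the difference of 0.47 did not pass the test (adjusted p = 0.8, limma). For CML37, GRX480 and AT3G01830 the differences of 1.35, 1.51 and 1.71 did not pass either, which does not show that these genes stayed level after 1 h. Whether the course of these genes differed from that of the genes above was not tested.

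Of the 12 lowest genes, 11 were lower at 3 h than at 1 h, and 5 were higher at 6 h than at 3 h. Over all probe sets the shares were 19.5% and 5.74%. These genes were picked for low values on the same 3 h arrays, which favours both counts, so the counts support nothing about timing. AT1G70880 read 9.78, 9.75 and 9.77 in control roots, 7.77, 8.19 and 7.61 at 1 h, 6.83, 6.41 and 6.51 at 3 h and 6.43, 6.27 and 6.47 at 6 h, with -1.27 between 3 h and 1 h (adjusted p = 0.000289, limma) and -0.19 between 6 h and 3 h, which did not pass the test. The lowest at 3 h against 1 h included AT1G48750, of the lipid transfer protein class, at -1.80, AT3G46880 at -1.76 and AT5G26200, of the mitochondrial carrier family, at -1.72. AT5G37450 and AT1G52820 were higher at 6 h than at 3 h, by 1.67 and 1.33. Plastid-encoded genes were lower at 3 h than at 1 h in 34 of 69 genes and higher in 0, with a median of -0.46.

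Other genes moved mainly between 3 h and 6 h. ATC, a relative of the floral repressor TFL1, read 6.56, 6.30 and 6.05 at 1 h, 6.54, 6.72 and 6.79 at 3 h and 9.87, 9.16 and 9.83 at 6 h, with 2.94 ± 0.29 between 6 h and 3 h (adjusted p = 2.39e-06, limma). Its differences of 0.49 between 3 h and control and 0.38 between 3 h and 1 h did not pass the test. The first (adjusted p = 0.175, limma) passed with the compared groups alone (0.0306) and with array weights (0.0478). AT1G74870 and AT1G14120 were higher at 6 h than at 3 h by 2.51 and 2.42. On the other side, AT1G23160, of the GH3 family, was higher at 3 h than in control roots (1.77) and lower at 6 h than at 3 h (-1.54). GSTU26 and the peroxidase gene AT5G15180 were 2.74-fold and 2.50-fold lower at 6 h than at 3 h.

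**Figure D4:**
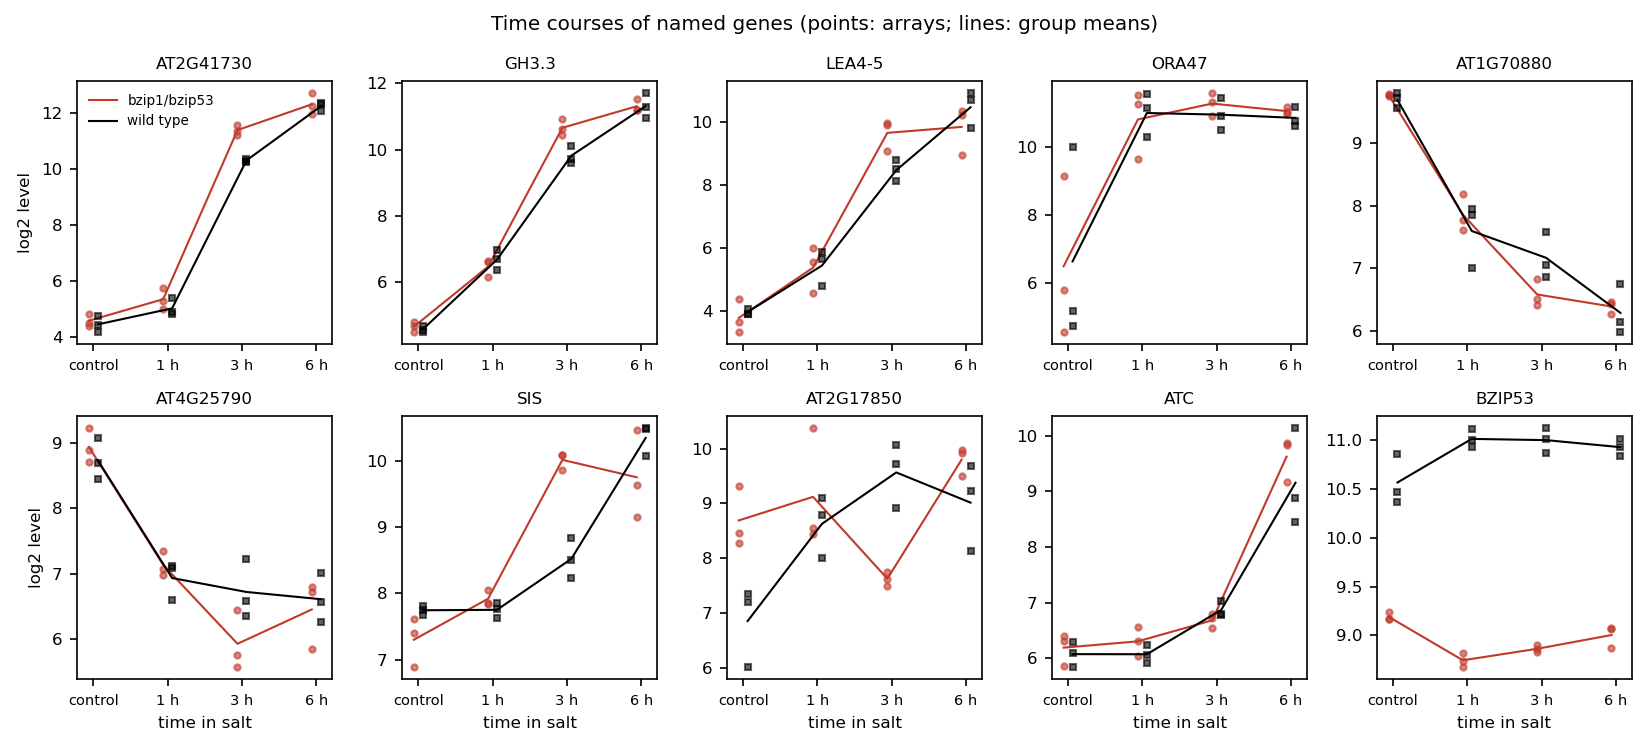
Log2 level of 10 named genes in untreated roots and after 1 h, 3 h and 6 h in salt, with bzip1/bzip53 as red circles and wild type as black squares. Points are single arrays (3 for each genotype and time) and lines join group means; AT2G41730, GH3.3 and LEA4-5 climb between 1 h and 3 h, and ATC between 3 h and 6 h.

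The last comparison asked whether the 3 h response of the mutant differed from that of wild type, which at 3 h had 8159 calls (35.9%), 2812 higher (12.4%) and 5347 lower (23.5%). The test of the difference of the responses, mutant minus wild type, called 331 probe sets (1.46%), with 179 (0.787%) positive, where the mutant response lay above that of wild type, and 152 (0.668%) negative. That split turned on the scaling, with 133 positive and 178 negative after the arrays were quantile normalized again, and 130 positive and 219 negative after centring each array on its median. The count of 331 also turned on single arrays, from 45 without 3 h mutant array 1 to 277 without 3 h mutant array 2. It was 65 without wild-type control array 3, 98 without wild-type 3 h array 1 and 143 without mutant control array 1. Omitting any other of the 12 arrays left between 162 and 227.

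Among positive differences of responses, AT5G14230 had the smallest p, and SIS and AT4G23590 were larger in size. It averaged 9.04 ± 0.13 in salt and 7.46 ± 0.15 in control roots of the mutant (SD, n = 3). In wild type it averaged 7.99 ± 0.048 in salt and 7.82 ± 0.044 in control roots (SD, n = 3). The response was 1.58 in the mutant and 0.17 in wild type, a difference of 1.40 ± 0.15 (adjusted p = 0.000169, limma). SIS, a serine-rich protein named for its induction by salt, read 10.10, 9.87 and 10.09 in salt and 6.89, 7.41 and 7.61 in control roots of the mutant. In wild type it read 8.50, 8.23 and 8.84 in salt and 7.75, 7.68 and 7.81 in control roots. The responses were 2.72 in the mutant and 0.78 in wild type, and their difference was 1.94 (adjusted p = 0.0117, limma). The transporter gene AT2G26690 responded by 1.31 in the mutant and 0.13 in wild type, and the aminotransferase gene AT4G23590 by 1.83 in the mutant and 0.11 in wild type. AT1G72850, of the TIR-NBS class of disease resistance proteins, responded by 1.27 in the mutant and close to 0 in wild type, a difference of 1.27. AT1G15330, AT1G63820 and AT5G05880 differed between the genotypes by 1.39, 1.10 and 0.78.

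On the negative side, a rhodanese gene and a pair of oxygenase genes were among those with the smallest p. AT2G17850, the rhodanese gene, read 7.50, 7.63 and 7.75 in salt and 8.28, 9.32 and 8.46 in control roots of the mutant. In wild type it read 10.06, 9.72 and 8.91 in salt and 7.19, 7.35 and 6.01 in control roots. The salt-treated means lay below control in the mutant and above it in wild type. Within the mutant the difference of -1.06 did not pass the test (adjusted p = 0.0788, limma), but passed with a replicate block (0.0392), with the compared groups alone (0.00949) and with array weights (0.0257), while the difference of responses was -3.78 ± 0.68 (adjusted p = 0.0124, limma). Mutant control roots lay above wild-type control roots for this gene, at 8.69 against 6.85, a difference that did not pass the test either (adjusted p = 0.137, limma). The universal stress protein gene AT3G03270 responded by -0.66 in the mutant and 1.14 in wild type. The mutant call was lost without mutant control array 2 (-0.54) or without 3 h array 1 (-0.60), and the difference of responses of -1.80 was not. The oxygenase genes AT1G80320 and AT1G52790 responded by -2.45 and -2.92 in the mutant, and by -0.52 and -1.02 in wild type. The GDSL lipase gene AT3G27950 responded by -2.08 in the mutant and -0.87 in wild type, and the remorin gene AT4G00670 by -0.54 in the mutant and 0.61 in wild type. AT5G60520 differed by -1.04 and AT1G28400 by -0.92, and AT1G28400 lost its call without 3 h mutant array 1 (-0.87).

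Most of the lists above held few calls in that test, against 1.46% over all probe sets. In the LEA list limma called 0 of 13 genes for the difference of responses (2 had an unadjusted p under 0.05), in the U-box ligase list 0 of 9 (2 unadjusted), in the GH3 list 0 of 5 (4 unadjusted; AT1G23160, of the GH3 family but outside that list, was called at 1.30) and in the Aux/IAA list 0 of 7 (2 unadjusted). For LEA4-5 the difference was 1.37 ± 0.58 (adjusted p = 0.249), which does not show that the genotypes responded alike. In the branched-chain list 0 of 9 were called (2 unadjusted), and IVD differed by 0.92 (adjusted p = 0.0649, limma). Its response was 0.58 in the mutant and -0.34 in wild type. In the bZIP list the targeted BZIP53 alone was called (-0.76, adjusted p = 0.0158, limma), while 6 of the 23 genes had an unadjusted p under 0.05. Negative calls numbered 2 in the UGT list and 1 each in the P450, glutathione S-transferase and peroxidase lists. The nitrate transport list held 1 positive call. ATG8H of the autophagy list and SDH2-2 of the citric acid cycle list were called as positive, at 0.89 and 0.47.

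**Figure D5:**
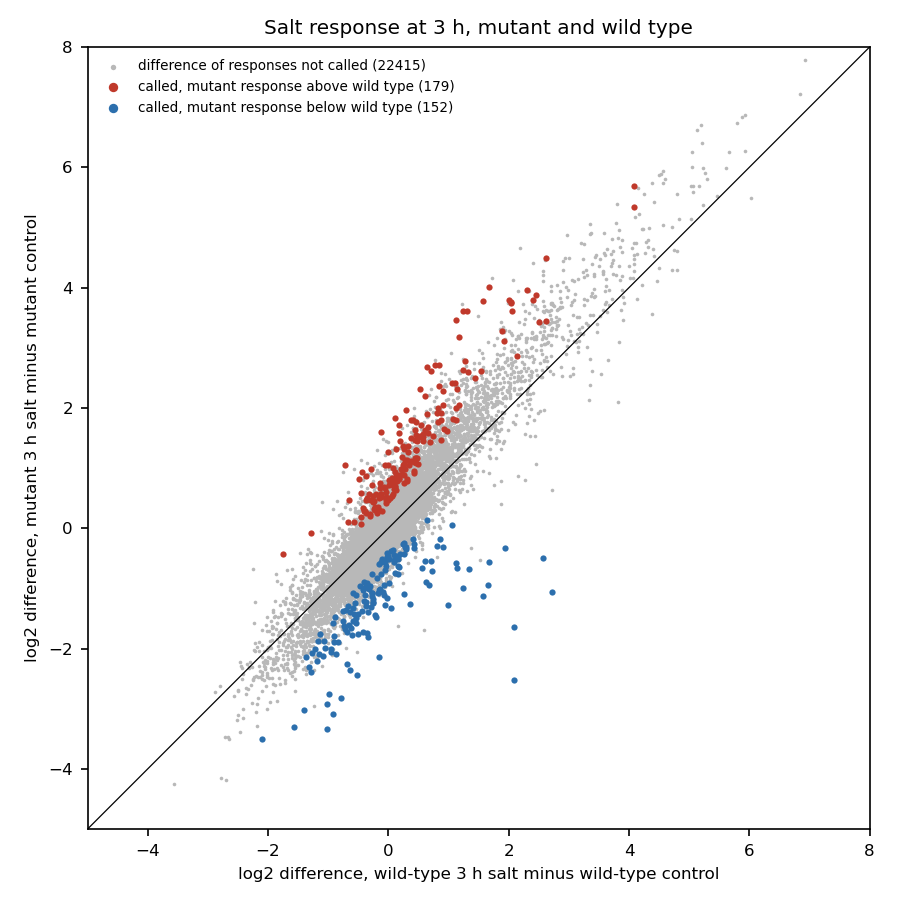
Log2 difference of 3 h salt minus control in wild type (x axis) and in bzip1/bzip53 (y axis) for 22746 probe sets, with a line of equal response. Red points are the 179 and blue points the 152 probe sets for which the difference of the responses was called; the blue points include AT2G17850, at 2.71 in wild type and -1.06 in the mutant.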

How the data were processed

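RNA of 24 root samples was read on 1-colour Affymetrix ATH1 arrays. The authors deposited log2 values, between 2.46 and 14.04 (a scale inferred from that range); the submitters' processing notes name RMA, affy, limma and build TAIR9, with no version or setting. RMA corrects background, equalises intensity distributions between arrays and summarises probes. Of 22810 probe sets, 64 controls were left out. The number of arrays limits the precision.

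Names came from the platform's gene table, updated with a RefSeq table of TAIR10.1 used for names only: 13513 probe sets had 1 gene, 503 several and 8730 none, and 13436 of the 13513 were matched. For 146 of 13356 genes with several probe sets, the one with the highest mean was used.

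A single limma model (3.58.1, in R 4.3.3) took in all 24 arrays with a mean for each of the 8 groups, leaving 16 residual and 3.83 prior degrees of freedom. Moderated two-sided p-values were adjusted by Benjamini-Hochberg over 22746 probe sets. Errors are SD over 3 arrays for levels and the model's SE for differences; a fold is 2 to the power of the difference. The code was tested on simulated data. Alternatives were a fit on the compared groups alone, array weights, a trended prior, a filter on means under 5, 2 rescalings, a replicate block, stricter thresholds and the omission of each array.

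The comparison and the lists were chosen with earlier results of these data known. After gene names were seen, the plastid list was taken from the RefSeq chromosome column and the flavonoid list was corrected; the low-oxygen and CAP-domain lists were written after values were seen. The genes named are, among called genes whose arrays do not overlap, the 12 highest and 12 lowest with both means at 5 or more, and the 10 highest and 5 lowest with 1 mean under 5. The 8 smallest p in each direction for the difference of responses, the targeted gene, markers, the ends of each list and the 5 highest and 5 lowest between times were added, and further list members were named after their values were seen. Sequences were not used here.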

Additional observations from a re-analysis of the deposited data

Results flagged for a closer look

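On mutant control array 1 the dap spike-in probe set, a control outside the comparison, read 8.20, against 3.01 to 3.43 on the other 23 arrays.

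The 3 h salt responses of the 2 genotypes differed in 40 of the genes named, listed or in runs of neighbours by the test of the difference, mutant minus wild type (log2, adjusted p under 0.05, limma). Over all 22746 probe sets there were 331 calls (1.46%). Of the genes below, 16 were named for the smallest p in this same test. Others come from the low-oxygen list, written after values were seen, so the count of 40 is no independent tally. The difference was positive for SIS (1.94), AT4G23590 (1.72), AT5G14230 (1.40), AT1G15330 (1.39), AT1G23160 (1.30), AT1G72850 (1.27), AT2G26690 (1.18), AT1G63820 (1.10), ATG8H (0.89), AT5G05880 (0.78) and SDH2-2 (0.47), and among other listed or neighbouring genes for AT1G21060 (0.84), AT5G52420 (0.74), AT5G52660 (0.70) and AT3G10020 (0.62). It was negative for AT2G17850 (-3.78), AT1G80320 (-1.93), AT1G52790 (-1.90), AT3G03270 (-1.80), AT1G52820 (-1.77), AT1G52800 (-1.63), AT1G48750 (-1.58) and AT3G27950 (-1.21). It was also negative for AT4G00670 (-1.15), CYP71B37 (-1.06), AT5G60520 (-1.04), UGT72E1 (-1.03), AT1G28400 (-0.92) and BZIP53 (-0.76). Among other listed or neighbouring genes it was negative for AT3G29970 (-3.73), AT5G10040 (-3.07), AT4G33560 (-2.24), AT3G10040 (-2.23), AT3G27220 (-1.71), AT4G27450 (-1.22), AT5G44730 (-1.10), AT2G41480 (-1.05), GSTU23 (-0.96), UGT72E2 (-0.83) and AT1G51850 (-0.71).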

How the results depend on the processing

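The comparison of 3 h salt with control in the mutant had 10342 calls, 2667 when a fold of at least 2 was asked as well, and 9127 to 9999 with 1 array left out. The call of BZIP53 (-0.33, adjusted p = 0.0119, limma) held under every other fit, scaling and filter and on omission of each array, and would be lost at an adjusted p under 0.01 or a fold of at least 2. The difference of responses was less stable: against 331 calls it had 635 when only the groups compared were fitted, 1046 with array weights, 7 at an adjusted p under 0.01, 132 with a fold of at least 2, and 45 to 277 with 1 array left out. The comparison of 3 h with 1 h had 7066 calls, 4577 at an adjusted p under 0.01, 992 with a fold of at least 2 and 4878 to 7053 with 1 array left out. That of 6 h with 3 h had 2690 calls, 1423 at an adjusted p under 0.01, 326 with a fold of at least 2 and 1755 to 2670 with 1 array left out. The cause of these shifts was not tested, apart from the stricter thresholds, which admit fewer calls by construction. Of 274 calls among the 509 named and listed genes at 3 h against control, 213 held at an adjusted p under 0.05 under every other fit, scaling and filter tried and on omission of each array; the stricter thresholds were not applied to single genes. The plastid gene psbK, not called over all arrays, was called lower, at -0.35, without mutant control array 1, and its values with 1 array left out ran from -0.35 to 0.30. With replicate numbers as a block (replicate block) the counts were 10340, 314, 7089 and 2704 for the 4 comparisons. The labels do not say that the numbers pair arrays: same-numbered 3 h and control arrays of the mutant correlated by 0.094, -0.00053 and 0.32 in their deviations from the group means, and 10 of 24 arrays correlated best with their own number. A level under 5 in 1 group limits what can be said of the size of a change. Where both groups lay there, the direction may be unsure too, and CLPB2 lost its call without mutant control array 1.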

Other observations

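Several runs of neighbouring genes were called in the same direction at 3 h in the mutant. Among named and measured genes with at most 2 unmeasured loci between neighbours, 16 runs of 3 or more were called in 1 direction with a fold of at least 2, of which 6 were higher and 10 lower. Of all probe sets, 6.99% were called at least 2-fold higher and 4.73% at least 2-fold lower. How many runs those shares alone would give was not tested. The longest higher runs held 4 genes each. One joined scpl30 (4.63), AT4G15120 (3.27), CCT2 (1.80) and AT4G15140 (2.50). The other held AT5G52660 (1.05), AT5G52670 (2.05), AT5G52680 (3.73) and AT5G52690 (2.11), not far from AT5G52760 of the leading genes. The lower runs included the receptor-like kinase genes AT2G28960 (-2.50), AT2G28970 (-2.49) and AT2G28990 (-2.21), and AT1G51850 (-1.87), AT1G51860 (-2.47) and AT1G51890 (-1.79). The aspartyl protease genes AT3G51330, AT3G51350 and AT3G51360 differed by -2.02, -2.33 and -2.17. Neighbours of 1 family can share probe sequence, and whether that bears on these runs was not tested.

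CAP-domain genes were collected into a list after 3 of them had been seen among the lowest genes, so the list supports nothing. Of 19 measured, 12 were lower and 0 higher, with a median of -0.64 and 10 calls kept. AT4G33720 read 10.70, 10.06 and 10.30 in salt and 12.60, 12.55 and 12.60 in control roots. The gene PR-1-LIKE read 5.67, 5.36 and 5.68 in salt and 8.10, 7.88 and 7.78 in control roots. For the difference from the wild-type response limma called 0 of the 19 at an adjusted p under 0.05, and 5 had an unadjusted p under 0.05.

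Genes known to be induced by low oxygen were also listed after values were seen, so this list supports nothing either. Of 23 measured, 7 were higher and 8 lower in the mutant at 3 h (5 lower without mutant control array 2), with a median of -0.53. Over all probe sets the shares were 17.4% and 28.1%. In wild type at 3 h 17 were higher and 2 lower, against 12.4% and 23.5% of all probe sets. The difference of responses was called as negative for 9 genes and positive for 1, against 0.668% and 0.787% of all probe sets. Apart from genes named above for that test, these calls were not repeated with an array left out. AT3G29970 responded by -1.64 in the mutant and 2.09 in wild type, a difference of -3.73 (adjusted p = 0.0168, limma), and its mutant call was lost without mutant control array 2 (-1.41) or 3 h array 3 (-1.34). AT3G10040, a repressor of low-oxygen responses, read 7.02, 6.97 and 7.19 in salt and 7.76, 8.31 and 8.06 in control roots of the mutant, with responses of -0.99 in the mutant and 1.25 in wild type. The mutant call was lost without mutant control array 2 (-0.85), control array 3 (-0.98), 3 h array 1 (-0.97) or 3 h array 2 (-0.94). Between 6 h and 3 h in the mutant, 13 of the 23 genes were higher and 1 lower, against 5.74% and 6.08% of all probe sets. That comparison shares the 3 h arrays, and the list was written with values seen, so these counts support nothing about timing.

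The probe sets with no gene in the table used here included 4468 of the 10342 calls. One of them, probe set 248337_at, read 13.18, 12.66 and 13.06 in salt and 7.23, 6.81 and 7.83 in control roots. Another, 254550_at, read 6.70, 5.54 and 6.16 in salt and 9.93, 10.90 and 10.32 in control roots.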
